A study of Mus musculus with 48 samples.

Results

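Triglyceride is built in hepatocytes by stepwise acylation of a glycerol backbone and then leaves the cell in very low density lipoproteins (VLDL) or stays in lipid droplets. In the glycerol phosphate route, *Gpam* adds the first acyl chain, *Agpat1* and *Agpat2* add the next one, and the lipins encoded by *Lpin1* and *Lpin2* remove the phosphate to give diacylglycerol. *Mogat1* and *Mogat2* make diacylglycerol from monoacylglycerol by a separate route, which is best known from the absorbing intestine. *Dgat1* and *Dgat2* add the last acyl chain, and *Mttp* encodes the microsomal protein that loads lipid onto apolipoprotein B. The transcripts of these 10 genes were described here in liver. They were found by the gene name given for each probe on the array, which yielded 25 probes, of which 23 were tested, among 33323 tested probes of 56605 on the array. Each gene was read by its brightest tested probe, so that 10 of 22029 gene names tested were members.

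Liver RNA of male C57Bl6J mice was hybridised in 1 colour to Agilent arrays. Each of 6 groups held 8 mice, with an array for every mouse. *WT* mice, mice with a hepatocyte-specific deletion of the nuclear receptor PPARα (labelled PPARaLKO, here *Pparα* hep-/-, and LKO in the plots) and mice without it in the whole body (PPARaKO, here *Pparα*-/-, and KO in the plots) received a control diet (CTRL) or a high fat diet (HFD) with 60% fat. Per the labels, the diets lasted 12 weeks and the mice were 20 weeks old, while the study's methods give a shorter time on the diets. All groups were housed at thermoneutrality and killed fed, per the study's methods. The hepatocyte deletion rested on Cre under the albumin promoter in mice with floxed *Pparα*, and the *WT* mice were bought while both mutant lines were bred in house, so that genotype and origin cannot be told apart.

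Median spot intensity on an array lay between 56 and 91, over a median local background of 20 to 36, and 25632 to 35548 probes per array were well above background. Arrays were weighted by how far they strayed from their group, with weights from 0.19 to 2.53. The 5 arrays weighted under 0.5 were *WT* CTRL replicate 6, *WT* HFD replicates 2 and 6, *Pparα* hep-/- CTRL replicate 1 and *Pparα*-/- CTRL replicate 3, all of wash batch 1. The brightest *Ppara* probe was lower in *Pparα* hep-/- than in *WT* livers by a fitted log2 difference of -0.42 on CTRL and -0.85 on HFD, and in *Pparα*-/- livers by -0.65 and -1.08. A second *Ppara* probe was lower in *Pparα*-/- livers (-1.11 on CTRL and -1.29 on HFD) and in *Pparα* hep-/- livers on HFD (-0.68), but was not called in the latter on CTRL (-0.10, adjusted p = 0.454). Both stayed bright in every group, and whether they lie in the deleted part of the gene was not examined, so they do not check the deletion. The 6 hepatocyte markers were well above background on all 48 arrays. In whole liver RNA, fewer cells of a type and less RNA per cell cannot be told apart.

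*Mogat2* was higher in both mutants on both diets at its brighter probe, *Mogat1* rose on HFD in *WT* mice and was low in *Pparα*-/- livers on HFD, and *Gpam*, *Agpat2* and *Dgat1* were lower on HFD in *Pparα*-/- livers than in either of the other genotypes. Differences were tested with limma and count as called where p, adjusted over all tested probes, did not exceed 0.05. Of 90 member tests between pairs of groups, 29 were called, 9 higher and 20 lower. Between 19.5% and 47.8% of all genes were called in the same 9 comparisons, so that the share of members lay within the background. All 32 called values, counting 3 differences in diet response, had the same sign within each of the 2 wash batches. The calls came from a fit over both batches, which makes this likely, so it is no separate support. Without array weights 12 of the 32 were no longer called, and without the 5 arrays of low weight, the rest weighted equally, 26 of the 32 were called.

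**Figure D1:**
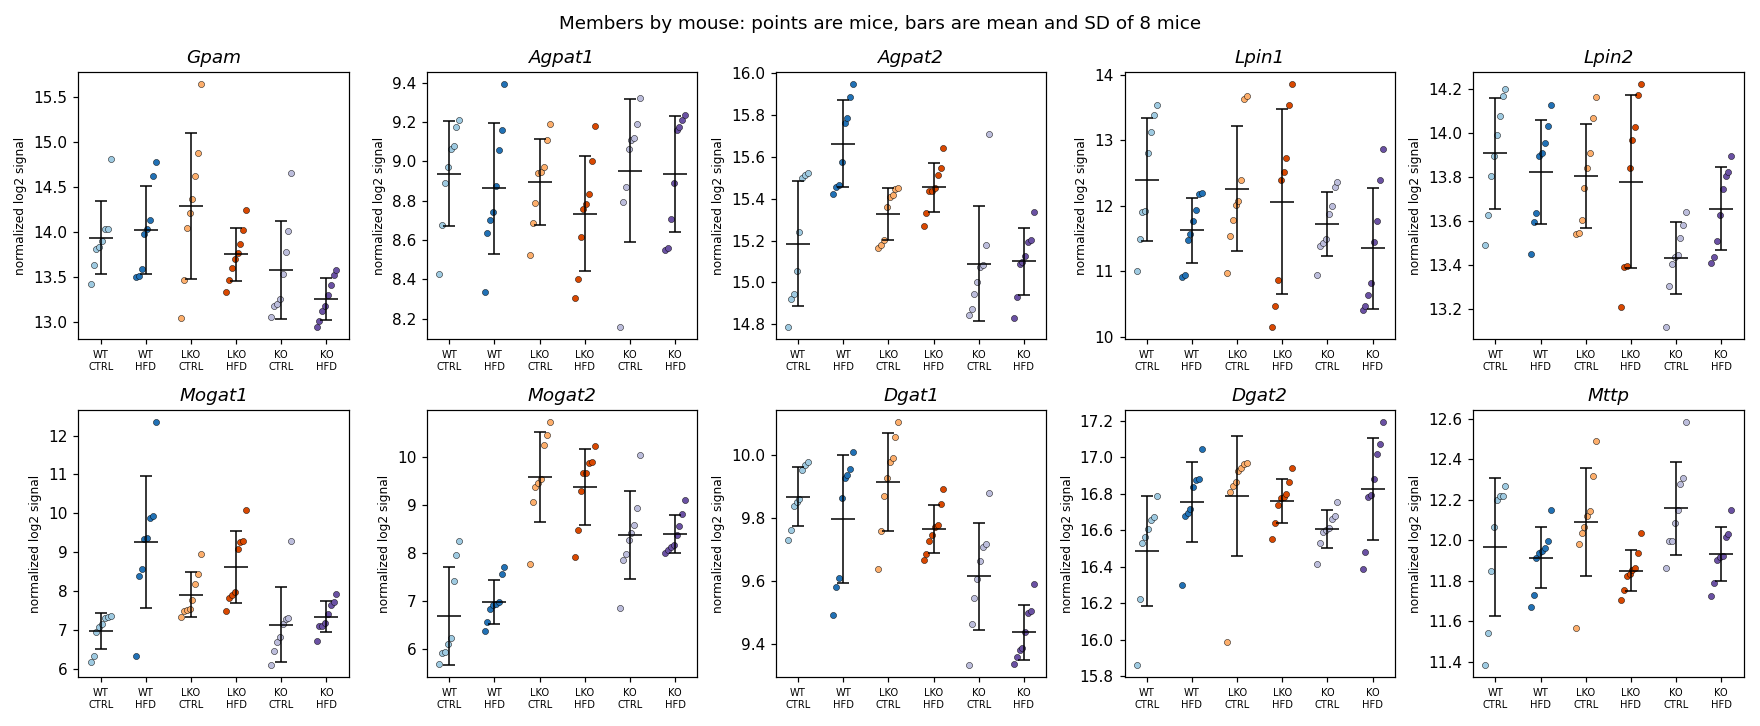
Normalized log2 signal (y axis) of the brightest probe of each of the 10 genes in 6 groups (x axis). Each point is 1 mouse, and the bars give the mean and SD of 8 mice. *Mogat2* sits between 5.68 and 8.24 in *WT* CTRL mice and between 7.76 and 10.72 in LKO CTRL mice, and *Mogat1* in *WT* HFD mice spans 6.33 to 12.34. Levels are not comparable between panels, since each probe has its own brightness.

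The diet changed few of the 10 genes in any genotype. In *WT* mice 2 of 10 members were called, *Mogat1* and *Agpat2*, both higher on HFD, where 19.5% of all genes were called. The 2 called in *Pparα* hep-/- mice, *Dgat1* and *Mttp*, were both lower on HFD, against 22.5% of all genes. *Pparα*-/- mice also had 2, *Dgat2* higher and *Dgat1* lower, against 26.4% of all genes. These shares are near the background. The diet response itself differed from that of *WT* in *Pparα* hep-/- mice for 1 member, *Agpat2* (11.2% of all genes), and in *Pparα*-/- mice for *Agpat2* and *Mogat1* (15.5%). It differed between the mutants for none of the 10 at an adjusted p of 0.05, against 3.93% of all genes, and 1 member, *Dgat2*, was under 0.05 in limma before adjustment.

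**Figure D2:**
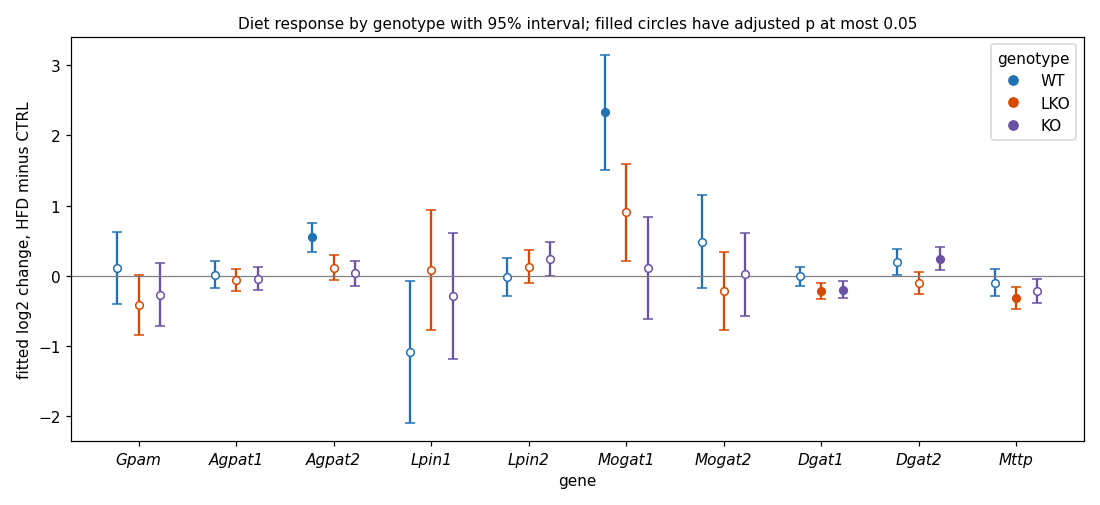
Fitted log2 change on HFD (y axis, HFD minus CTRL) of each member (x axis) in *WT*, LKO and KO mice, with 95% intervals from limma. Filled circles have an adjusted p of at most 0.05. The *Mogat1* interval in *WT* mice, 1.51 to 3.14, lies above the KO interval, -0.61 to 0.84.

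Between genotypes on CTRL, 2 members were called in *Pparα* hep-/- against *WT* livers, *Mogat2* and *Dgat2*, both higher, where 25.2% of all genes were called. Against *WT*, 3 were called in *Pparα*-/- livers, with *Mogat2* higher and *Lpin2* and *Dgat1* lower (35.3% of all genes). On HFD, *Pparα* hep-/- livers had *Mogat2* higher and *Agpat2* lower than *WT* (28.6% of all genes). *Pparα*-/- livers on HFD had *Mogat2* higher and *Gpam*, *Agpat2*, *Mogat1* and *Dgat1* lower than *WT*, 5 of 10 members where 47.8% of all genes were called. The comparisons of 1 diet share their *WT* mice.

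Set against each other, the mutants differed mostly in 1 direction. On CTRL, 5 of 10 members were called in *Pparα*-/- against *Pparα* hep-/- livers (26.6% of all genes), and all 5, *Gpam*, *Agpat2*, *Mogat2*, *Dgat1* and *Dgat2*, were lower in *Pparα*-/- livers, where 13.4% of all genes were lower. On HFD 6 were called (31.9% of all genes), of which *Gpam*, *Agpat2*, *Mogat1*, *Mogat2* and *Dgat1* were lower in *Pparα*-/- livers (15% of all genes) and *Agpat1* was higher. The median fitted log2 difference of the 10 members was -0.32 on CTRL and -0.34 on HFD, beside 0.0022 and 0.0060 over all gene names tested. On CTRL, *Agpat2* and *Dgat2* were not called without array weights (adjusted p = 0.0923 and 0.359), whereas *Lpin2* then was, also lower (adjusted p = 0.0314). In the HFD comparison 4 of 10 members were called without array weights. With the slide as a random block in place of the wash term and no weights, 3 were. Over all 33323 tested probes, calls in that HFD comparison fell from 10188 to 6047 and 5811 in these 2 settings.

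**Figure D3:**
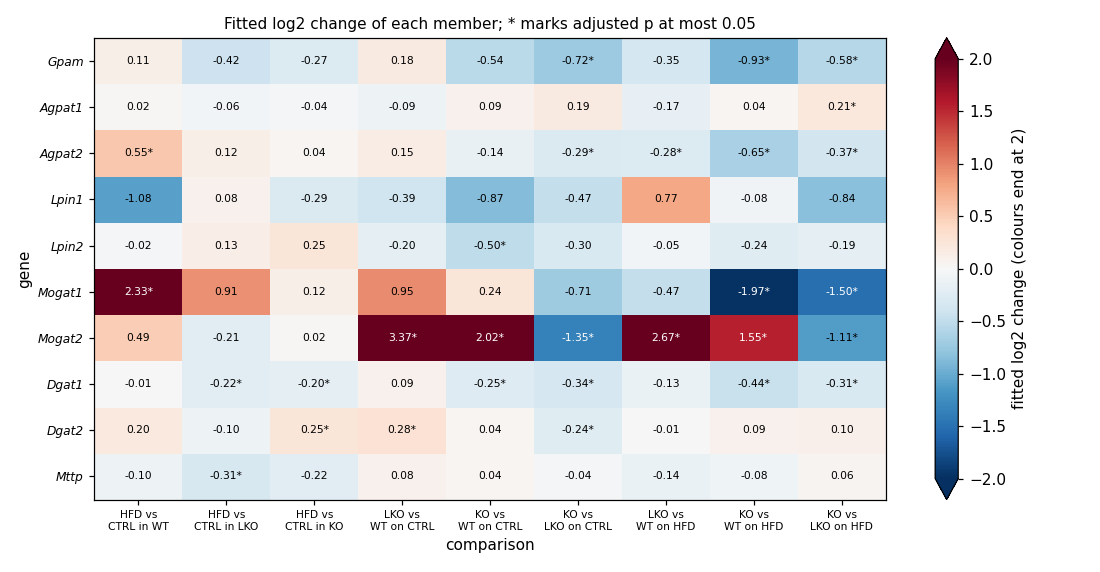
Fitted log2 change of the 10 members (rows) in 9 comparisons (columns), with the value in each cell, an asterisk where the adjusted p is at most 0.05 and colours that end at 2. *Mogat2* is the row with positive called values in all 4 comparisons of a mutant with *WT*, and the columns of KO against LKO hold negative called values for 5 members each.

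*Mogat2* had the widest range of group means of the 10 genes. Its brighter probe lies at chr7:106367601-106367660 (mm9, minus strand) and holds the letters AATAAA, those of a polyadenylation signal. In *WT* mice its log2 signal had a lowest, median and highest value of 5.68, 6.15 and 8.24 on CTRL and of 6.37, 6.92 and 7.71 on HFD. In *Pparα* hep-/- mice the same 3 values were 7.76, 9.50 and 10.72 on CTRL and 7.92, 9.66 and 10.22 on HFD. In *Pparα*-/- mice they were 6.85, 8.34 and 10.05 on CTRL and 7.99, 8.27 and 9.10 on HFD. *Pparα* hep-/- livers were thus the highest and *WT* the lowest on either diet, and on HFD no mutant mouse was as low as any *WT* mouse. On CTRL the groups overlapped. Of the *WT* CTRL mice, 5 lay between 5.68 and 6.21 and the other 3 between 7.40 and 8.24, the highest being the array with a weight of 0.21, and the lowest *Pparα* hep-/- mouse was the array with a weight of 0.19.

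The fitted *Mogat2* difference of *Pparα* hep-/- from *WT* livers was 3.37 ± 0.32 (SE) on CTRL, a 10.3-fold difference (adjusted p = 8.51e-11), with all 8 mice above the *WT* mean. On HFD it was 2.67 ± 0.29, or 6.35-fold (adjusted p = 1.91e-09). *Pparα*-/- livers exceeded *WT* by 2.02 ± 0.33 on CTRL (4.05-fold, adjusted p = 4.06e-06) and by 1.55 ± 0.29 on HFD (2.94-fold, adjusted p = 1.74e-05). *Pparα*-/- lay below *Pparα* hep-/- livers by a log2 difference of -1.35 ± 0.30 on CTRL (adjusted p = 0.000518) and -1.11 ± 0.27 on HFD (adjusted p = 0.00117). The diet moved *Mogat2* by 0.49 (*WT*), -0.21 (*Pparα* hep-/-) and 0.023 (*Pparα*-/-), and none of the 3 was called (adjusted p = 0.338, 0.629 and 0.964). The size of the CTRL differences from *WT* moved with the processing. It was 19.1-fold in *Pparα* hep-/- livers with the scanner's processed signal scaled to the 75th percentile of each array, 7.88-fold with normexp background correction and 7.19-fold without array weights. In *Pparα*-/- livers the same settings gave 6.89-fold, 3.24-fold and 3.23-fold.

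The dimmer *Mogat2* probe gave another picture. It targets another transcript model, bridges 5886 bases of genome at chr7:106375119-106381004, starts 7518 bases from the brighter probe and is shown here because it goes against the brighter one. Its first 46 bases follow, with capitals marking a TGA in the frame that starts at the second base.
Mogat2, dimmer probe: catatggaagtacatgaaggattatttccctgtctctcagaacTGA
This probe was well above background on 8 *WT* CTRL, 4 *WT* HFD, 6 *Pparα* hep-/- CTRL and 6 *Pparα* hep-/- HFD arrays, but on 0 *Pparα*-/- CTRL arrays and 1 *Pparα*-/- HFD array. It was tested only because *WT* and *Pparα* hep-/- arrays read it, so its difference from *Pparα*-/- livers is no independent test, and p is not given. *WT* CTRL signal was at least 1.35-fold that of *Pparα*-/- CTRL livers, where the probe was not well above background. That bound sets the mean of the brighter group against the higher of each dim array's own value and its lowest signal well above background. *Pparα* hep-/- livers differed from *WT* at this probe by -0.12 on CTRL and 0.096 on HFD, and neither was called (adjusted p = 0.57 and 0.61). The higher level of the brighter probe in both mutants had no counterpart at the dimmer one, which was mostly at background in *Pparα*-/- livers. Which of the 2 probes reads the transcript of the enzyme in liver was not settled here, so the *Mogat2* values above and below are those of the brighter probe and not of the gene as a whole.

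*Dgat2* is the neighbour of *Mogat2* on chromosome 7, with its probe 65386 bases away on the same strand. The large *Mogat2* differences were not seen in it. *Dgat2* encodes the enzyme held to make most hepatic triglyceride from newly made fatty acids, and its probe had log2 medians on CTRL and HFD of 16.59 and 16.78 (*WT*), 16.89 and 16.78 (*Pparα* hep-/-) and 16.61 and 16.84 (*Pparα*-/-). *Pparα* hep-/- exceeded *WT* livers on CTRL by 0.28 ± 0.09 (adjusted p = 0.0192), while *Pparα*-/- fell below *Pparα* hep-/- livers by a log2 difference of -0.24 ± 0.09 (adjusted p = 0.033). HFD raised it by 0.25 ± 0.08 in *Pparα*-/- mice (adjusted p = 0.0262). Without array weights none of the 3 was called (adjusted p = 0.0801, 0.359 and 0.189), and with the processed signal scaled to the 75th percentile the HFD value turned to -0.11 (adjusted p = 0.384), whereas with normexp background correction it was 0.22 (adjusted p = 0.0251). Leaving out *Pparα*-/- HFD replicate 7 or 8 also ended that last call. The call between the mutants on CTRL was lost with the processed signal (adjusted p = 0.228) and on leaving out any 1 of *Pparα* hep-/- CTRL replicates 4, 6, 7 and 8 or *Pparα*-/- CTRL replicates 1, 6 and 8, with an adjusted p of up to 0.0679.

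*Mogat1* was read by a pair of probes 15348 bases apart on chromosome 1 of unlike brightness. The brighter lies at chr1:78534646-78534705 and the dimmer at chr1:78519298-78519357 (mm9, plus strand). The dimmer is shown as a reading of the gene at a second place, before the brighter one along the strand.
Mogat1, dimmer probe: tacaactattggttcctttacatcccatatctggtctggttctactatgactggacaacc
At the brighter probe, lowest, median and highest log2 signal in *WT* mice were 6.19, 7.13 and 7.37 on CTRL and 6.33, 9.37 and 12.34 on HFD. *WT* mice on HFD were thus spread widely, with 7 of 8 above every *WT* CTRL mouse and 1, an array with a weight of 0.34, within the CTRL range. In *Pparα* hep-/- mice the values were 7.35, 7.66 and 8.97 on CTRL and 7.50, 8.53 and 10.099 on HFD. *Pparα*-/- mice had 6.10, 7.0 and 9.29 on CTRL and 6.72, 7.29 and 7.92 on HFD, so that the highest of the latter lay below 7 of 8 *WT* HFD mice.

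*Mogat1* rose on HFD in *WT* mice by 2.33 ± 0.40 (SE), or 5.01-fold (adjusted p = 6.01e-05), by 1.74 in wash batch 1 and 2.86 in wash batch 2. In *Pparα* hep-/- mice the change was 0.91 ± 0.34, which missed the threshold (adjusted p = 0.0534), and leaving out any 1 of 13 single arrays brought it past. In *Pparα*-/- mice it was 0.12 ± 0.36 (adjusted p = 0.852), with a 95% interval of -0.61 to 0.84. The response of *Pparα*-/- mice was smaller than that of *WT* mice by a log2 difference of -2.21 ± 0.54 (adjusted p = 0.00456). That of *Pparα* hep-/- mice differed from *WT* by -1.42 ± 0.53 (adjusted p = 0.0758), with an interval of -2.49 to -0.35. On HFD, *Pparα*-/- livers lay below *WT* by -1.97 ± 0.35 (adjusted p = 1.05e-05) and below *Pparα* hep-/- by -1.50 ± 0.33 (adjusted p = 0.000385). *Pparα* hep-/- and *WT* livers on HFD differed by -0.47 (interval -1.19 to 0.25, adjusted p = 0.352).

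The dimmer *Mogat1* probe was well above background on 0 *WT* CTRL arrays and 7 *WT* HFD arrays, on 2 and 6 *Pparα* hep-/- arrays, and on 1 and 2 *Pparα*-/- arrays. Its *WT* HFD signal was at least 2.24-fold that of *WT* CTRL mice. The probe was tested because it was read in the 2 HFD groups where it is high, and the groups set against them here were mostly at background. Its differences are thus no independent test, so p is not given, and the fitted ones are not sizes of change. The *Pparα* hep-/- means were 5.67 on CTRL and 6.36 on HFD. The *Pparα*-/- HFD mean was 5.28, beside 6.79 in *WT* and 6.36 in *Pparα* hep-/- livers. The plot of both genes' probe pairs shows every mouse.

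**Figure D4:**
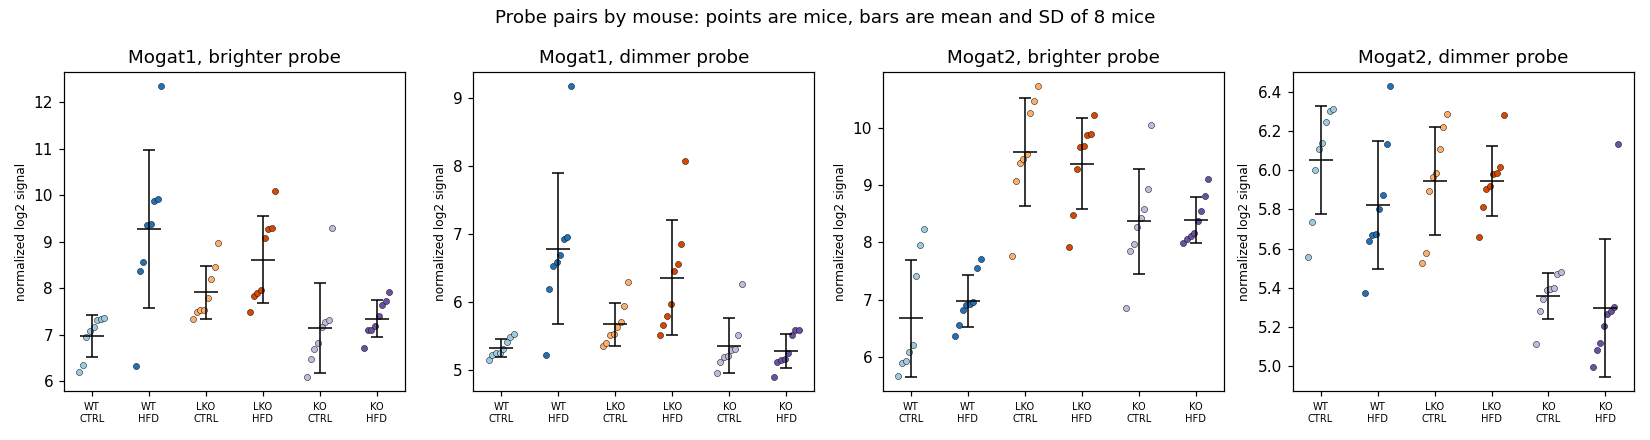
Normalized log2 signal (y axis) of the brighter and dimmer probe of *Mogat1* and *Mogat2* by group (x axis), with 1 point per mouse and the mean and SD of 8 mice. The dimmer *Mogat2* probe has its lowest means, 5.36 and 5.30, in KO mice, whereas the brighter one has its lowest, 6.68, in *WT* CTRL mice.

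*Cfd*, a white adipocyte marker, moved with *Mogat1* in *WT* mice, and its part in the *Mogat1* result was not tested. Its median log2 signal was 7.86 on CTRL and 14.18 on HFD in *WT* mice. On HFD it was 7.13 in *Pparα* hep-/- and 5.84 in *Pparα*-/- livers. The other adipocyte markers did not follow. *Adipoq* and *Plin1*, which define the cell type, were well above background on 0 of 8 *WT* HFD arrays, and *Lep* and *Retn* had *WT* means of 7.39 and 5.82 on CTRL and 7.48 and 5.85 on HFD. The summed log2 level of the 3 tested adipocyte markers ran from 8.05 to 10.27 in *WT* CTRL and from 8.73 to 15.52 in *WT* HFD mice. Enterocyte markers bear on the monoacylglycerol route. Of 6, *Cdx2* was well above background on 0 of 48 arrays, *Cdx1* and *Sis* on 3 each, *Lct* on 2 and *Vil1* on 8, while *Apoa4*, which liver also makes, was bright on all 48. *Apoa4* was higher than in *WT* in *Pparα* hep-/- livers, by 1.07 on CTRL and 1.65 on HFD (adjusted p = 0.00186 and 1.09e-06), and in *Pparα*-/- livers, by 1.52 and 2.42 (adjusted p = 1.78e-05 and 1.1e-11). Unlike the brighter *Mogat2* probe, it was also higher in *Pparα*-/- than in *Pparα* hep-/- livers on HFD (0.77, adjusted p = 0.00574) and rose on HFD in both mutants (0.80 and 1.12, adjusted p = 0.0106 and 0.000576). *Vil1*, the other enterocyte marker tested, was well above background on 3 *WT* and 5 *Pparα* hep-/- arrays on CTRL and on 0 arrays of the other groups, with mean log2 signals of 5.80, 5.84 and 5.201 on CTRL in *WT*, *Pparα* hep-/- and *Pparα*-/- livers. The part of these markers in the *Mogat2* result was not tested.

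Nuclear receptors of the PPAR family bind, with RXR, a direct repeat of AGGTCA with 1 base between its copies. Because the mutants lack a member of that family, the RefSeq promoter windows of the genes (GRCm38.p6, 250 bases before to 50 after a start) were searched on both strands for AGGTCANAGGTCA with up to 2 mismatches, and for the half-site AGGTCA, which the repeat contains. Windows were found for 7 of the 10 genes, 11 in all. The repeat occurred in 1 of them, that of *Mogat1*, and in 3.86% of 32851 windows in RefSeq. The exact half-site occurred in 3 of the 11, of *Lpin1*, *Agpat1* and *Gpam*, and in 16.3% of all windows. The *Mogat1* stretch at chr1:78510810-78511059 (plus strand), which ends at the base before the start, is shown because *Mogat1* had the largest response to HFD, and capitals mark the match with 2 mismatches, from base -51 to base -39.
Mogat1 promoter: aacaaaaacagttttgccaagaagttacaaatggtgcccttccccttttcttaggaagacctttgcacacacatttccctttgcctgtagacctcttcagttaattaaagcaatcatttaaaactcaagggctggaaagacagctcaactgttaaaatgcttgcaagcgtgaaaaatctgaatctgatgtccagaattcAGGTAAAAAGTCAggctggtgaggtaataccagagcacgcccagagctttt
Such a match is a description of the letters and no evidence of binding.

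*Dgat1*, the other enzyme of the last acylation step, had small differences with little spread between mice. It has 1 probe, whose 60 bases span 147 bases of genome at chr15:76333128-76333274 (mm9, minus strand).
Dgat1 probe: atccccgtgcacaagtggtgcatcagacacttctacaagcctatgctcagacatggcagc
Lowest, median and highest log2 signal were 9.73, 9.86 and 9.98 in *WT* CTRL and 9.49, 9.90 and 10.01 in *WT* HFD mice. In *Pparα* hep-/- mice they were 9.64, 9.95 and 10.104 on CTRL and 9.67, 9.76 and 9.89 on HFD. *Pparα*-/- mice had 9.33, 9.64 and 9.88 on CTRL and 9.34, 9.41 and 9.59 on HFD, and on HFD every one of them lay below every *Pparα* hep-/- mouse. The *Pparα*-/- livers were lower than *WT* by -0.25 ± 0.07 on CTRL (adjusted p = 0.0028) and -0.44 ± 0.06 on HFD (adjusted p = 2.61e-08), the latter a 1.36-fold difference. They also lay below *Pparα* hep-/- livers, by -0.34 ± 0.06 on CTRL (adjusted p = 2.34e-05) and by -0.31 ± 0.05 on HFD (adjusted p = 1.14e-05). HFD lowered *Dgat1* in *Pparα* hep-/- mice by a log2 change of -0.22 ± 0.06 (adjusted p = 0.00436) and in *Pparα*-/- mice by -0.20 ± 0.06 (adjusted p = 0.0121). Neither diet change was called without array weights (adjusted p = 0.263 and 0.0927).

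*Gpam*, the mitochondrial enzyme that starts the glycerol phosphate route, was low in *Pparα*-/- livers. Its median log2 signals on CTRL and HFD were 13.87 and 14.01 (*WT*), 14.29 and 13.74 (*Pparα* hep-/-) and 13.40 and 13.24 (*Pparα*-/-). On HFD the 8 *Pparα*-/- mice lay between 12.95 and 13.58, and all were below the *WT* HFD mean, whose mice lay between 13.50 and 14.78. The difference from *WT* on HFD was -0.93 ± 0.22, or 1.90-fold (adjusted p = 0.000544). Against *Pparα* hep-/- livers it was -0.72 ± 0.23 on CTRL (adjusted p = 0.0156) and -0.58 ± 0.21 on HFD (adjusted p = 0.0283, and 0.131 without array weights). Leaving out any 1 of *Pparα* hep-/- HFD replicates 5, 7 and 8 or *Pparα*-/- HFD replicates 7 and 8 also ended the HFD call between the mutants. On CTRL, *Pparα*-/- and *WT* livers differed by -0.54 at the brighter probe (adjusted p = 0.0955) and by -1.31 at the dimmer one, which was called (adjusted p = 0.000184).

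*Agpat2*, the acyltransferase whose human loss causes lipodystrophy, responded to HFD in *WT* mice alone among the called responses. In *WT* mice its lowest, median and highest log2 signal were 14.79, 15.15 and 15.52 on CTRL and 15.42, 15.67 and 15.95 on HFD. In *Pparα* hep-/- mice they were 15.16, 15.38 and 15.45 on CTRL and 15.27, 15.45 and 15.64 on HFD. *Pparα*-/- mice had 14.84, 15.04 and 15.71 on CTRL and 14.83, 15.11 and 15.34 on HFD, and no *Pparα*-/- mouse on HFD reached the lowest *WT* HFD mouse. The *WT* response was 0.55 ± 0.10, or 1.46-fold (adjusted p = 0.000126), with 8 of 8 mice above the CTRL mean. The responses of 0.12 ± 0.09 in *Pparα* hep-/- and 0.036 ± 0.089 in *Pparα*-/- mice were not called (adjusted p = 0.341 and 0.808).

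The *Agpat2* response was smaller than in *WT* by a log2 difference of -0.43 ± 0.13 in *Pparα* hep-/- mice (adjusted p = 0.0304) and -0.51 ± 0.13 in *Pparα*-/- mice (adjusted p = 0.00835). Without array weights these were -0.37 (adjusted p = 0.245) and -0.47 (adjusted p = 0.0517). Without the 5 arrays of low weight they were -0.36 and -0.39 (adjusted p = 0.126 and 0.0662). On HFD, *Agpat2* was lower than in *WT* by -0.28 ± 0.09 in *Pparα* hep-/- (adjusted p = 0.0162, and 0.193 without array weights) and by -0.65 ± 0.09 in *Pparα*-/- livers (adjusted p = 4.34e-08). Leaving out *WT* HFD replicate 5 or 7 ended the first of these 2 calls. *Pparα*-/- were also below *Pparα* hep-/- livers, by -0.29 on CTRL (adjusted p = 0.0146, and 0.0923 without array weights) and -0.37 on HFD (adjusted p = 0.000383). The second *Agpat2* probe had the same 7 calls in the same directions.

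*Agpat1*, which catalyses the same step, had group medians between 8.77 and 9.09. Its 1 call, 0.21 ± 0.08 higher in *Pparα*-/- than in *Pparα* hep-/- livers on HFD (adjusted p = 0.0365), was lost without array weights (adjusted p = 0.345) and on leaving out any 1 of 9 single mice. The dimmer *Agpat1* probe was called lower in *Pparα* hep-/- than in *WT* livers on HFD, by -0.21 ± 0.08 (adjusted p = 0.0446, and 0.0384 without array weights).

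The lipins differed from each other in spread. *Lpin1*, whose hepatic transcript is known to swing with feeding and time of day, ranged from 10.15 to 13.86 within *Pparα* hep-/- HFD mice alone, and none of its 9 pairwise comparisons was called. The *WT* change on HFD was -1.08 ± 0.50 (adjusted p = 0.133), with an interval of -2.09 to -0.07. Without *Pparα* hep-/- HFD replicate 1, *Lpin1* was called higher in *Pparα* hep-/- than in *WT* livers on HFD (adjusted p = 0.0383), and leaving out any 1 of *Pparα* hep-/- HFD replicates 1 and 2 or *Pparα*-/- HFD replicates 7 and 8 brought a call between the mutants on HFD. A dimmer *Lpin1* probe was called in both comparisons, 0.79 higher in *Pparα* hep-/- than in *WT* livers and lower in *Pparα*-/- than in *Pparα* hep-/- livers by -0.74 (adjusted p = 0.0343 and 0.0289, and 0.195 and 0.116 without array weights). *Lpin2* was tighter. It was lower in *Pparα*-/- than in *WT* livers on CTRL by -0.50 ± 0.14 (adjusted p = 0.00326), with medians of 13.44 and 13.94 and all 8 mice below the *WT* mean. On HFD the same comparison gave -0.24 ± 0.12 (adjusted p = 0.0884), and 3 of its 5 other probes were called lower there, by -0.41 to -0.64. Between the mutants on CTRL it differed by -0.30 ± 0.12 (adjusted p = 0.0654), which was called without array weights (-0.37, adjusted p = 0.0314) and on leaving out any 1 of 4 single arrays, and 2 of the 5 other probes were called lower there (-0.46 and -0.49, adjusted p = 0.00474 and 0.0104).

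*Mttp* was lowered by HFD in *Pparα* hep-/- mice by a log2 change of -0.31 ± 0.08 (adjusted p = 0.00439), from a median of 12.09 to one of 11.84. In wash batch 1 the change was -0.012 and in wash batch 2 it was -0.41, and without array weights it was -0.23 (adjusted p = 0.292). In *Pparα*-/- mice the change was -0.22 ± 0.08 (adjusted p = 0.0507, and leaving out any 1 of 15 single arrays brought it past the threshold) and in *WT* mice -0.096 ± 0.095 (adjusted p = 0.552). Medians of all 6 groups lay between 11.84 and 12.13, and no comparison between genotypes was called.

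Macrophage markers were higher in the mutants on HFD. Of 5, 4 were called higher than in *WT* on HFD for the hepatocyte deletion, where 28.6% of all genes were called. All 5 were for the whole-body deletion (47.8% of all genes). On CTRL 1 and 2 of 5 were, near the 25.2% and 35.3% of all genes. HFD raised 3 in *Pparα* hep-/- and 5 in *Pparα*-/- mice (22.5% and 26.4% of all genes called), while in *WT* mice their adjusted p lay between 0.825 and 0.965. The summed log2 level of the 5 markers ran from 14.23 to 15.92 in *WT* CTRL, from 13.71 to 16.20 in *WT* HFD, from 14.54 to 16.43 in *Pparα*-/- CTRL and from 15.43 to 16.51 in *Pparα*-/- HFD mice, and all 5 were well above background on all 48 arrays. In *Pparα* hep-/- mice it ran from 14.95 to 16.74 on CTRL and 15.14 to 16.23 on HFD. The summed hepatocyte level stayed between 20.33 and 20.52 in all groups. It rests mostly on its brightest genes, which quantile normalization holds nearly equal, so it does not measure hepatocyte content. *Apoa1* was lower in *Pparα*-/- than in *WT* livers on CTRL (-0.51, adjusted p = 2.55e-07). *Tat* fell on HFD in *Pparα*-/- mice (-0.60, adjusted p = 0.0424), while *Alb*, *Ttr*, *Serpina1c* and *Pck1* were called in no pairwise comparison. The part of other cells in the lower *Gpam*, *Agpat2* and *Dgat1* of *Pparα*-/- livers was not tested.

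Around the 10 genes, 34 others of the pathway were counted, in lists for substrate supply, for other enzymes of the same steps and for VLDL assembly, and all 34 were tested. HFD called 12 of 34 in *WT* mice (19.5% of all genes), and 12 and 9 in the hepatocyte and whole-body mutants (22.5% and 26.4%). Against *WT*, 13 were called in *Pparα* hep-/- and 13 in *Pparα*-/- livers on CTRL (25.2% and 35.3% of all genes), and 9 and 20 on HFD (28.6% and 47.8%), the latter with 10 higher and 10 lower. Between the mutants 10 of 34 were called on CTRL, 4 higher and 6 lower with the whole-body deletion (26.6% of all genes), and 13 on HFD, 6 higher and 7 lower (31.9%).

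Of 9 genes that supply glycerol phosphate and acyl-CoA, 7 were called in *Pparα*-/- against *WT* livers on HFD, 2 higher and 5 lower, where 47.8% of all genes were called. *Gpd1*, the cytosolic enzyme that makes glycerol phosphate, was the lowest, at -1.62 ± 0.12 on HFD (adjusted p = 3.05e-15) and -1.21 ± 0.14 on CTRL (adjusted p = 2.11e-09). *Gk*, glycerol kinase, was the highest there, at 0.30 ± 0.08 on HFD (adjusted p = 0.00252), and it also rose on HFD in all 3 genotypes, by 0.40 (*WT*), 0.30 (*Pparα* hep-/-, adjusted p = 0.00554, and 0.0862 without array weights) and 0.53 (*Pparα*-/-). *Aqp9*, the glycerol channel, led the list on CTRL in *Pparα*-/- against *WT* livers, at 0.42 ± 0.09 (adjusted p = 0.00023).

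The acyl-CoA synthetases, which activate fatty acids, moved in different ways. *Acsl1* rose on HFD in *WT* mice by 0.70 ± 0.14 (adjusted p = 0.000411) and was lower on HFD in *Pparα* hep-/- and *Pparα*-/- than in *WT* livers, by -0.81 and -0.77 (adjusted p = 3.58e-06 and 1.32e-06). *Acsl3*, found on lipid droplets, was the lowest of the list in *Pparα* hep-/- against *WT* livers, at -0.72 on CTRL and -0.96 on HFD (adjusted p = 0.00445 and 5.23e-05, and 0.105 and 0.00311 without array weights). *Acsl5* fell on HFD in *Pparα* hep-/- mice by a log2 change of -0.78 ± 0.10 (adjusted p = 5e-07) and in *Pparα*-/- mice by -0.40 ± 0.10 (adjusted p = 0.00445), while on CTRL it was higher in *Pparα* hep-/- than in *WT* livers by 0.41 (adjusted p = 0.00568). *Acsl4* fell in *WT* mice by a log2 change of -0.49 (adjusted p = 0.0123).

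Among 10 other enzymes of the same steps, *Gpat3* had the largest differences and a wide spread. Its log2 signal ran from 6.503 to 11.48 in *WT* CTRL and from 10.15 to 11.42 in *WT* HFD mice, and from 6.74 to 11.60 and from 8.90 to 11.20 in *Pparα* hep-/- mice. In *Pparα*-/- mice it ran from 7.67 to 11.91 on CTRL and from 9.38 to 11.51 on HFD, so that low mice occurred mainly on CTRL. The fitted change on HFD was 2.28 ± 0.52 in *WT* (adjusted p = 0.00146, and 0.0585 without array weights) and 2.90 ± 0.44 in *Pparα* hep-/- mice (adjusted p = 9.64e-06). *Gpat4* was lower in *Pparα*-/- than in *WT* livers on both diets, by -0.51 and -0.53 (adjusted p = 0.000854 and 4.74e-05), and in *Pparα* hep-/- livers on CTRL by -0.46 (adjusted p = 0.0025). *Lpin3*, the third lipin, was higher in both mutants on both diets, by 0.40 to 0.56. *Agpat4* was higher on HFD in both mutants than in *WT* livers, by 0.49 and 0.50 (adjusted p = 0.0033 and 0.00107, and 0.0958 and 0.0361 without array weights), and *Gpat2* in *Pparα*-/- than in *Pparα* hep-/- livers on HFD by 0.52 (adjusted p = 0.000852).

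Of 15 genes of VLDL assembly and export, 5, 4 and 4 were called for the HFD response of *WT*, *Pparα* hep-/- and *Pparα*-/- mice, in that order, against 19.5%, 22.5% and 26.4% of all genes, so that the shares of the mutants lie near the background. In *WT* mice the largest were *Ces1d*, a lumenal lipase, at 1.00 ± 0.26 (adjusted p = 0.00407, and 0.186 without array weights), and *Vmp1*, at -0.50 ± 0.13 (adjusted p = 0.00517, and 0.106 without array weights). *Tm6sf2*, which acts in lipidation of VLDL, fell on HFD in *Pparα* hep-/- mice by a log2 change of -0.62 ± 0.13 (adjusted p = 0.000548) and in *Pparα*-/- mice by -0.35 ± 0.13 (adjusted p = 0.0483, and 0.0946 without array weights). *Apob*, the structural protein of the particle, was 0.32 ± 0.08 higher on HFD in *Pparα* hep-/- mice (adjusted p = 0.003), and *Cideb*, a protein of the particle's lipid loading, 0.32 ± 0.08 higher in *Pparα*-/- mice (adjusted p = 0.00195).

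Between genotypes, *Tmem41b*, a scramblase of the endoplasmic reticulum, was lower than in *WT* in both mutants on both diets, by -0.22 to -0.51. Without array weights its *Pparα* hep-/- differences were not called (adjusted p = 0.0605 on CTRL and 0.134 on HFD). *Sar1b*, the coat GTPase that carries large lipoprotein cargo, was 0.35 ± 0.08 higher in *Pparα* hep-/- than in *WT* livers on CTRL (adjusted p = 0.000692). *Lpcat3*, which remodels phospholipid, was the lowest of the list in *Pparα* hep-/- against *WT* livers on HFD, at -0.30 ± 0.10 (adjusted p = 0.0198, and 0.344 without array weights). *P4hb*, the partner subunit of the *Mttp* product, was 0.25 ± 0.04 higher in *Pparα*-/- than in *WT* livers on HFD (adjusted p = 7.09e-06), where *Mttp* differed by -0.079 (adjusted p = 0.454).

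The diet response of *Pparα*-/- mice differed from that of *WT* mice for 4 of the 34 genes, a share below the 15.5% of all genes, among them *Gpat3* (-2.99 ± 0.70, adjusted p = 0.00301) and *Acsl1* (-0.57 ± 0.19, adjusted p = 0.0344). That of *Pparα* hep-/- mice differed for 3, also a share below that of all genes (11.2%), with *Acsl5* at -0.74 ± 0.15 (adjusted p = 0.00192) and *Vmp1* at 0.61 ± 0.17 (adjusted p = 0.0192), and *Vmp1* differed likewise in *Pparα*-/- mice (0.59, adjusted p = 0.0206). Between the mutants it differed for 2 (3.93% of all genes), *Gpat3* (-3.61, adjusted p = 0.000559) and *Apob* (-0.44, adjusted p = 0.0213). Of the differences in response named here, *Acsl5* alone was called without array weights (adjusted p = 0.0459).

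**Figure D5:**
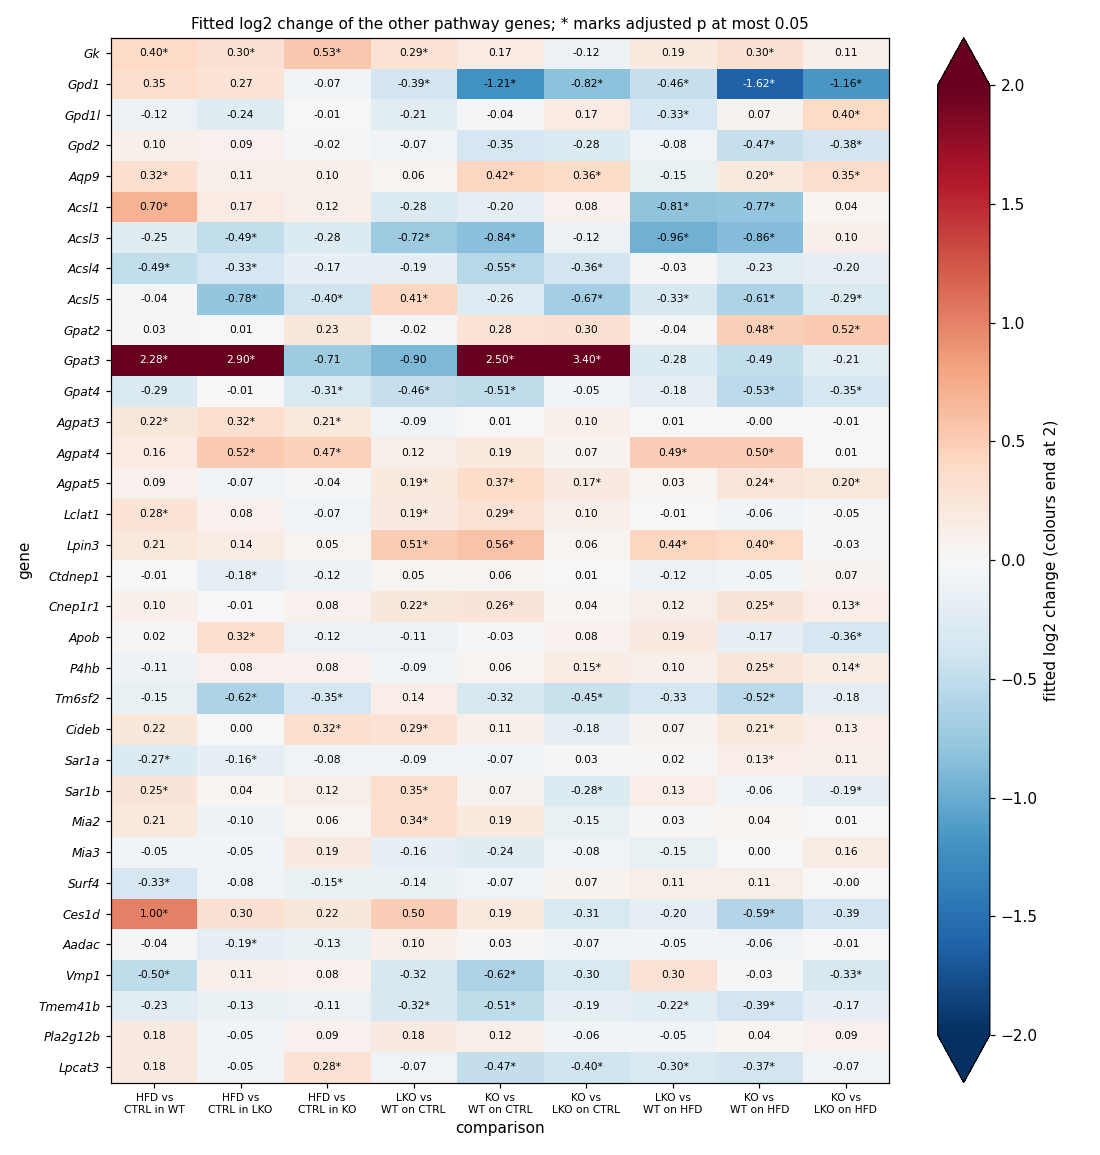
Fitted log2 change of 34 other pathway genes (rows) in 9 comparisons (columns), with an asterisk where the adjusted p is at most 0.05 and colours that end at 2. *Gpd1* holds the lowest value, -1.62 in KO against *WT* on HFD, and *Gpat3* holds values beyond the colour range, up to 3.40 in KO against LKO on CTRL.

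The 10 members did not vary as 1 block. Over the 45 pairs of members, the median Pearson correlation across the 48 arrays, after group and wash batch means were removed, was 0.039. The pair most alike was *Lpin1* and *Lpin2* (0.53), and the pair most opposed was *Mogat2* and *Mttp* (-0.63). Next came *Gpam* with *Agpat2* (0.48), *Dgat1* with *Dgat2* (0.48) and *Mogat1* with *Mogat2* (0.45). These values describe arrays that share slides, washes and one normalization.

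The genes most like *Mogat2* across the 48 arrays, with wash batch means removed, were *Habp4* (r = 0.86), *Zfr2* (0.84) and *Rasgrp2* (0.83), and those most opposed were *Bcl7c* (-0.83), *Bik* (-0.81) and *Glud1* (-0.81). With group means removed as well, the same 6 values were 0.74, 0.62, 0.55, -0.58, -0.26 and -0.50, so that part of the likeness lay in the differences between groups. *Mogat1* was looked at in the same way after its values were seen. Its closest genes were *Nudt1* (0.72), *Arel1* (0.72) and *Decr1* (0.70), the last an enzyme of fatty acid oxidation, and the most opposed were *Vimp* (-0.70), *Hs3st3b1* (-0.69) and *Pan2* (-0.67). With group means removed these 6 values were 0.46, 0.45, 0.45, -0.50, -0.41 and -0.54.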

How the data were processed

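The authors deposited Feature Extraction 10.10.1.1 output for each array. The spot intensity used is, per the file headers, the median pixel intensity, neither background subtracted nor normalized. The processed intensity is background subtracted, per the file headers. The authors' deposited log2 table is filtered, corrected for the wash and quantile normalized, and it served as an alternative.

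Intensities were log2 transformed, outlier spots left out, and spots of a probe averaged. A probe was kept when 4 or more of the 8 arrays of any group read it well above background, and the kept probes were quantile normalized. limma (3.58.1, R 4.3.3) was fitted with 6 group means, a wash batch term and array weights, with p adjusted by the Benjamini-Hochberg method in each contrast. The code was tested on simulated data. Where 2 groups are compared, the value is the fitted log2 difference ± SE.

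Members, gene lists and tests were chosen with earlier results of these data known. The text names all 10 members and, of the lists, the called gene that changed most up or down in a comparison, for most comparisons. Other list genes, and other comparisons of a named gene, were picked after their values were seen. Probe positions come from the files (mm9), and promoter sequences are from RefSeq. The number of arrays limits the precision. Nothing in the labels ties mice of different groups, and p measures spread between mice.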

Additional observations from a re-analysis of the deposited data

Results flagged for a closer look

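In 60 groups of 8 mice (10 genes in 6 groups), 5 values, from 4 mice, stood apart from the rest of their group by more than the 95% limit of Dixon's test, and chance alone marks about 1 group in 20. *Gpam* in *WT* CTRL replicate 4 was at 14.81, with the nearest mouse at 14.04. In *Pparα*-/- CTRL replicate 3, an array with a weight of 0.42, *Agpat1* was at 8.16 (nearest 8.80) and *Agpat2* at 15.71 (nearest 15.18). *Mogat1* in *Pparα*-/- CTRL replicate 2 was at 9.29, with the nearest mouse at 7.32. *Dgat2* in *Pparα* hep-/- CTRL replicate 1, the array with the lowest weight (0.19), was at 15.99, with the nearest mouse at 16.81.

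The response to HFD differed between genotypes, by the test of the difference itself, for *Agpat2* in *Pparα* hep-/- against *WT* mice (-0.43) and in *Pparα*-/- against *WT* mice (-0.51), and for *Mogat1* in *Pparα*-/- against *WT* mice (-2.21).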

How the results depend on the processing

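Of 120 member values, all 120 kept their direction and their side of the threshold in the authors' value table and 117 did so with normexp background correction. Without array weights 12 calls were lost and 1 gained, and the numbers were the same with the slide as a random block in place of the wash term. That setting (slide block below) also leaves out the weights, so it changes more than 1 choice. Members called, of 10, changed as follows. For the HFD response of *Pparα* hep-/- mice 2 became 0 without array weights, 0 with the slide block and 4 with the processed signal. The processed signal also raised the calls over all 33323 probes there, from 6735 to 8227. For that of *Pparα*-/- mice 2 became 0, 0, and 1 with no filter or without the 5 arrays of low weight (chosen after seeing the data), and ranged from 1 (without *Pparα*-/- HFD replicate 7) to 3 with single mice left out. For *Pparα* hep-/- against *WT* on CTRL 2 became 1 without weights and 1 with the slide block. On HFD 2 became 1 with no weights, the slide block, no filter or without the 5 arrays, and single mice gave 1 to 4 (4 without *Pparα* hep-/- HFD replicate 1). Between the mutants on HFD 6 became 4 without weights and 3 with the slide block and no weights. For the difference in response of *Pparα* hep-/- from *WT* mice 1 became 0 with no weights, no wash term, the slide block, no filter or without the 5 arrays. It became 3 with the processed signal, where calls over all probes rose from 3472 to 4440, and from 0 to 2 with single mice left out. For that of *Pparα*-/- from *WT* mice 2 became 1 without weights or the 5 arrays. Between the mutants 0 ranged from 0 to 1. *Dgat2* in *Pparα*-/- mice turned to -0.11 on HFD with the processed signal. Causes were not tested.

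Replicate numbers did not pair the mice (median correlation of same-numbered mice 0.016, lowest -0.41). A replicate block left 116 of 120 values as they were and took the difference in response of *Pparα* hep-/- from *WT* mice from 1 call to 0. Over all 33323 probes, leaving out the weights took the calls for the HFD response from 6735 to 1270 (*Pparα* hep-/-) and from 8273 to 4034 (*Pparα*-/-). On HFD it took them from 8893 to 3244 for *Pparα* hep-/- against *WT* and from 10188 to 6047 between the mutants. For the differences in response it took them from 3472 to 298 (*Pparα* hep-/- from *WT*), from 4781 to 1740 (*Pparα*-/- from *WT*) and from 1139 to 110 (between the mutants). The first of these 3 counts was 2185 with no wash term, 1226 with no filter, 319 with the slide block and no weights (298 with no weights alone), 2276 with the replicate block and 2068 without the 5 arrays, and the HFD response of *Pparα* hep-/- mice had 4236, 3578 and 1205 calls under the first 3 of these (1270 with no weights alone) and 4169 under the last.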
